A study of Mus musculus with 8 samples.

Results

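A set of 9 receptor-pathway genes was followed across brown adipose tissue libraries: Cntfr, the other receptor subunits Il6st, Lifr, Osmr, Il6ra, Il11ra1 and Lepr, the ligand gene Clcf1 and the feedback inhibitor gene Socs3. They were taken by symbol from a deposited table of 24535 genes, and all 9 were found there. The study compared poly(A) RNA from brown adipose tissue, a fat depot specialised for making heat, of wild-type mice (WT, 4 libraries) with that of mice carrying a PGRMC2 adipose tissue knockout (PATKO, 4 libraries). All mice were of strain 129Sv/C57BL6j, 18 weeks old, on chow and kept at 30 °C, so that both groups share the mixed strain and the warm housing. The series title presents PGRMC2 as a carrier of heme inside cells, and the comparison asks which transcripts differ in its absence. The labels name neither the Cre driver nor the number of animals behind a library, so spreads are those between libraries. The genes were selected on the PATKO against WT difference in FPKM, which Cntfr showed most, together with its receptor partners. Changes of these 9 genes are therefore descriptions, given without a p-value except where the authors' deposited one is quoted.

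Cytokines of the interleukin-6 family signal through gp130, the receptor chain encoded by Il6st. A specific chain such as the interleukin-6 receptor (Il6ra) or the interleukin-11 receptor (Il11ra1) binds the ligand and recruits gp130, while other ligands pair gp130 with the leukaemia inhibitory factor receptor (Lifr) or the oncostatin M receptor (Osmr). The ciliary neurotrophic factor receptor (Cntfr) has no cytoplasmic part: it is tethered to the membrane by a lipid anchor, binds ciliary neurotrophic factor or the CLCF1 cytokine, and passes the signal on through LIFR and gp130. The receptor chains activate JAK kinases and STAT3, and STAT3 induces Socs3, which shuts the pathway down. Cntfr is best known from neurons and skeletal muscle.

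FPKM, a level per gene length and library size, summed to 287525 to 291153 per WT library and 307371 to 315232 per PATKO library. The median log2 change of the 12235 tested genes was 0.17, and -0.00 after median-of-ratios scaling, which centres the median gene. Pgrmc2 was 38.5 ± 2.87 FPKM in WT and 3.24 ± 0.301 in PATKO, and its homologue Pgrmc1 was 52.1 ± 5.82 and 55.7 ± 4.42 (SD, n = 4 each). All 10 brown adipocyte markers were present in every library, led by the fatty acid carrier gene Fabp4, with summed levels of 14168 to 15770 FPKM in WT and 14417 to 16557 in PATKO. Absolute read depth is not given in the sources used here. The values that single reads produce in low genes put 7 libraries at 1.31 to 1.42 times the depth of WT 55.

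Cntfr (ENSMUSG00000028444.17; chromosome 4, 41657498 to 41697089, minus strand, GRCm38) was the member that separated the groups most. It stood at 10.6, 5.01, 6.83 and 5.82 FPKM in WT 55, 62, 64 and 65. In PATKO 53, 57, 70 and 71 it stood at 18.6, 23.8, 26.0 and 19.9 FPKM. Every PATKO library was above every WT library, and WT 55 was the highest of its group. The means were 7.06 ± 2.47 and 22.1 ± 3.41 FPKM (SD, n = 4 each), a 3.13-fold difference. On the log2(FPKM + 0.5) scale the change was 1.62 (SE 0.20), and 1.43 (SE 0.19) after median-of-ratios scaling, ranks 58 and 62 from the top among tested genes. In the authors' deposited table its adjusted p-value is 1.36e-12, from a test not named there. In bulk tissue, more cells that carry a transcript and more transcript per cell cannot be told apart.

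To show the sequence at the start of the genes on which the comparison turns, the bases just upstream of the first listed start of Cntfr and Il6st, and of the feedback gene Socs3, are given 5′ to 3′ on the gene's strand, from RefSeq on GRCm38.p6. Capitals mark a match to TTCNNNGAA, the motif that STAT proteins bind. The window of Socs3 is cut where a GENCODE exon begins. The printed windows of Cntfr and Socs3 lie within the annotated span of their gene. Other listed Cntfr starts, at 41695720, 41695925 and 41696037, lie upstream of the printed window.
Cntfr, chr4:41695454-41695703, minus strand: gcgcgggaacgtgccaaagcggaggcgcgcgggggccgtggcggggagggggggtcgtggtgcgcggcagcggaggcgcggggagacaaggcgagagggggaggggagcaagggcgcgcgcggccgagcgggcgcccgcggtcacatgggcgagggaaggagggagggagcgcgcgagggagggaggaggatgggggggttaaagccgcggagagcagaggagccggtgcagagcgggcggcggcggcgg
Il6st, chr13:112463820-112464069, plus strand: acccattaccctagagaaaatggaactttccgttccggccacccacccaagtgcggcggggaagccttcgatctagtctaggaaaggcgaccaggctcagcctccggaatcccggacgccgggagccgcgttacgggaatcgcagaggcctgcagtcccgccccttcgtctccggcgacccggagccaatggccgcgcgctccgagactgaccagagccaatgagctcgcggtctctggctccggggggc
Socs3, chr11:117969452-117969616, minus strand: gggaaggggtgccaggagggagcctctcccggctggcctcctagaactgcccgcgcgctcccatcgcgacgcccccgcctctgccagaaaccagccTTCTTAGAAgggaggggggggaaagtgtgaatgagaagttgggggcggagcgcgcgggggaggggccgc
Of the 9 genes, 8 had entries, with 16 windows of 250 bases. The motif, which reads the same on both strands, was found in 1 of them, that of Socs3, starting 154 bases upstream of its start site, and in 7.02% of the 32851 windows of all genes. The 6 Cntfr windows held no match to TTCNNNGAA, to the E-box CACGTG (6.02% of all windows) or to the nuclear receptor motif AGGTCA (14% of all windows, both strands searched). TGANNNNGC, the core of the antioxidant response element, was found at 1 site, which lies in 2 of the 6 windows because these overlap, and 35.2% of all windows hold it on either strand. The printed Cntfr window is 78.4% G and C, against a median of 52.4% over all windows. A match is a description of letters and not a bound site.

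Il6st (ENSMUSG00000021756.12; chromosome 13, 112464070 to 112510086, plus strand), the gp130 chain shared by the family, was 19.6, 20.6, 18.5 and 17.0 FPKM in WT 55, 62, 64 and 65. The values in PATKO 53, 57, 70 and 71 were 25.1, 21.5, 26.9 and 21.7 FPKM. The groups were apart by a narrow margin, and PATKO 57 and PATKO 71 lay close to WT 62. The mean went from 18.9 ± 1.54 to 23.8 ± 2.63 FPKM (SD, n = 4), a log2 change of 0.32 (SE 0.09). After median-of-ratios scaling it was 0.13 (SE 0.09) and the groups overlapped.

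Il11ra1 (ENSMUSG00000073889.10; chromosome 4, 41699989 to 41769474, plus strand), the interleukin-11 binding chain, was 8.52, 8.29, 9.29 and 9.56 FPKM in the WT libraries in the same order. It was 10.6, 11.7, 12.6 and 11.7 FPKM in the PATKO libraries. Its groups were apart as deposited, with a log2 change of 0.37 (SE 0.08), and overlapped after median-of-ratios scaling, where the change was 0.18 (SE 0.07). The near-identical copies Il11ra2, Gm13305 and Gm2002 were listed at 0 in all libraries, and how reads shared with them were assigned is uncertain. The span of Il11ra1 in GENCODE starts 2900 bases from Cntfr and overlaps other genes, among them Rpp25l, Dctn3, Arid3c and Ccl27a on the opposite strand and Galt on the same strand. Its starts listed in RefSeq, at 41760443 and 41762310, lie further from Cntfr, beyond Rpp25l, Dctn3 and Arid3c. Whether reads were counted by strand is not given in the sources used here, so reads of the overlapping genes and of Il11ra1 may not have been told apart.

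Lifr and Osmr, whose chains join gp130 in the CNTF and oncostatin M complexes, changed less than Cntfr. Lifr was 5.57, 5.67, 5.26 and 4.77 FPKM in the WT libraries and 6.16, 5.60, 8.195 and 5.47 FPKM in the PATKO libraries. PATKO 70 stood above the rest and the groups overlapped (log2 change 0.22, SE 0.12). Osmr was 2.72 ± 0.322 FPKM in WT and 2.88 ± 0.544 in PATKO (SD, n = 4), also with its highest value, 3.64 FPKM, in PATKO 70. Its log2 change of 0.06 (SE 0.13) turned to -0.11 (SE 0.10) after median-of-ratios scaling.

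Il6ra, the interleukin-6 binding chain, was 1.65 ± 0.269 FPKM in WT and 1.62 ± 0.307 in PATKO (SD, n = 4), with library ranges of 1.41 to 1.94 and 1.24 to 1.94 that overlapped. Lepr, the leptin receptor, was between 0.033 and 0.111 FPKM in WT and between 0.060 and 0.128 in PATKO. It was the member left out of the test, since its mean over the libraries was below 0.5 FPKM. Socs3 was 1.48, 0.874, 0.652 and 1.36 FPKM in the WT libraries and 1.32, 0.845, 1.08 and 0.876 FPKM in the PATKO libraries. The spread of this feedback gene within each group was larger than the distance between the means of 1.09 and 1.03 FPKM (log2 change -0.03, SE 0.19).

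**Figure D1:**
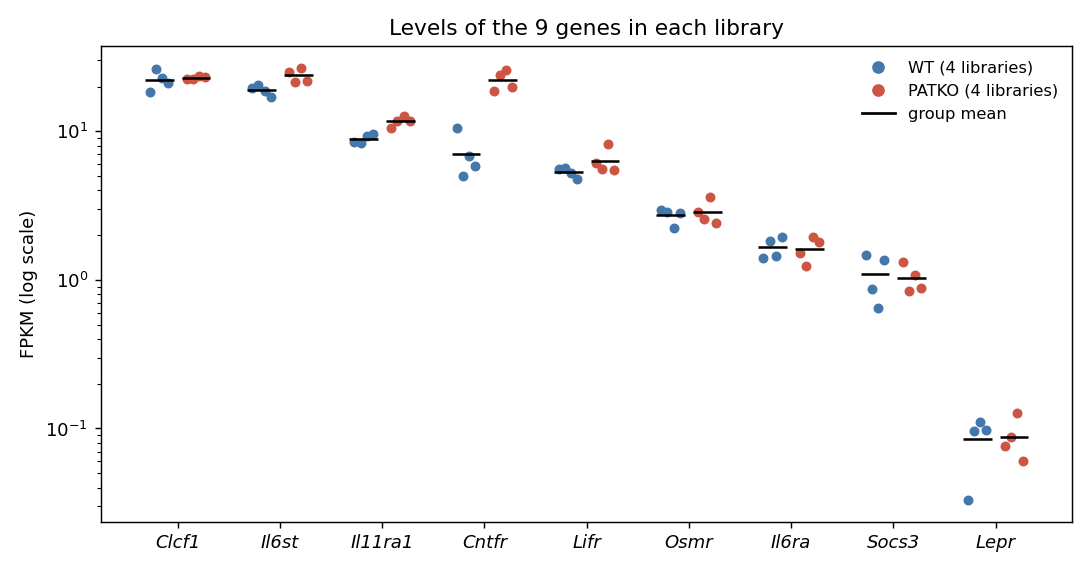
FPKM of each of the 9 genes (log scale) in the 4 WT and 4 PATKO libraries, with group means as bars. The Cntfr points of PATKO lie between 18.6 and 26.0 FPKM, above all WT points, while the groups of Lifr, Osmr, Il6ra, Socs3, Lepr and Clcf1 overlap.

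The values listed for Clcf1 could not be read as those of the cytokine gene alone. Clcf1 (chromosome 19, 4214238 to 4223490, plus strand) was listed at 18.3, 26.4, 23.0 and 21.2 FPKM in the WT libraries and at 22.4, 22.7, 23.5 and 23.0 FPKM in the PATKO libraries. Pold4 (4231899 to 4233634, plus strand), a DNA polymerase delta subunit gene downstream on the same strand that was chosen after its values were seen, was listed at 24.2, 34.8, 30.4 and 28.1 FPKM and at 29.7, 29.8, 31.03 and 30.5 FPKM. The ratio of Clcf1 to Pold4 stayed between 0.755 and 0.760 in all 8 libraries, a spread of 0.709%. Of 12100 genes above 0 in every library and with a mean of at least 0.5 FPKM, 53 (0.438%) had another gene proportional to them within 1%. GENCODE annotates a further protein-coding gene, AC109138.7 (4214357 to 4233297, plus strand), that spans both. The share of the signal that belongs to Clcf1 cannot be told apart from that of Pold4, so Clcf1 is left out of the order of levels below.

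Of the 8 tested members 3, Cntfr, Il6st and Il11ra1, were higher in PATKO past the threshold of limma's test across all genes (Benjamini-Hochberg, 0.05), and 0 were lower, where 13.2% of all tested genes were called higher and 0.27% lower. Before adjustment, 34.6% of all tested genes were higher and 1.39% lower at 0.05. The same 3 members had groups that did not overlap, as did 24% of tested genes in that direction and 0.597% in the other. After median-of-ratios scaling Cntfr alone was called, where 0.0817% of genes were called higher and 0.0409% lower (9.06% and 8.23% before adjustment), and Cntfr alone had groups apart, as did 5.56% of genes in that direction and 4.37% in the other. Of these genes 4.24% have, in the authors' deposited table, an adjusted p-value under 0.05, Cntfr among them. Since this contrast chose the set, nothing is read from these counts. The median log2 change over the 8 tested members was 0.14, against 0.17 over all tested genes, and 4 of the 8 lay above the latter. Over the 7 left without Clcf1, whose values cannot be read as its own, the median was 0.22. This median keeps Cntfr and lay above that of all tested genes. With Clcf1 kept and Cntfr, which led the choice of the set, left out, it was 0.06, below that of all tested genes. After median-of-ratios scaling the median was 0.04 without Clcf1 and -0.11 without Cntfr, against -0.00 over all tested genes. Il6st and Il11ra1 have adjusted p-values of 0.594 and 0.537 in the authors' deposited table. Leaving out 1 library at a time, the log2 change of Cntfr was 1.48 (without WT 62) to 1.82 (without WT 55). It stayed past the threshold in all 8 fits, which is no support, since this contrast chose Cntfr. Il6st passed in none of these fits, and Il11ra1 did not pass without WT 62, WT 64, PATKO 53, PATKO 70 or PATKO 71.

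**Figure D2:**
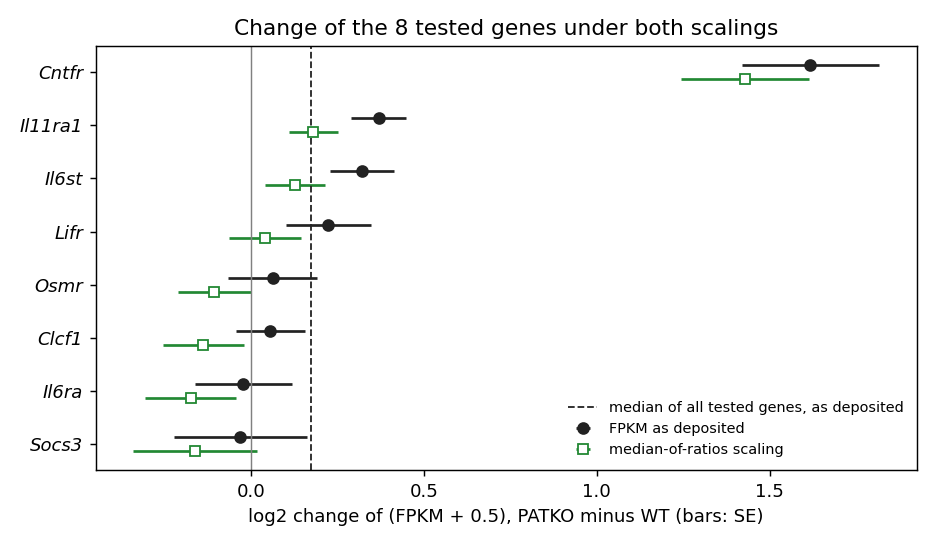
Log2 change of (FPKM + 0.5), PATKO minus WT, of the 8 tested genes with SE bars, for FPKM as deposited (filled) and after median-of-ratios scaling (open); the dashed line is the median of all tested genes, 0.17. Cntfr lies at 1.62 and 1.43, while the other 7 genes lie between -0.18 and 0.37 under these scalings.

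Ratios within a library do not depend on how libraries are scaled, so each receptor gene was also set against Il6st. Cntfr per Il6st was 0.541, 0.243, 0.368 and 0.342 in the WT libraries and 0.739, 1.11, 0.966 and 0.919 in the PATKO libraries. The groups did not overlap, and the mean ratio of 0.932 ± 0.151 in PATKO was 2.50 times the WT mean of 0.374 ± 0.124 (SD, n = 4). Cntfr per Lifr went from 1.33 ± 0.424 to 3.52 ± 0.555 (SD, n = 4), again with no overlap. Lifr per Il6st was close to constant in WT, at 0.275 to 0.284, and ranged from 0.245 to 0.305 in PATKO. Il11ra1 per Il6st was 0.475 ± 0.0711 and 0.493 ± 0.0597 (SD, n = 4), with overlapping groups. Osmr per Il6st was 0.144 ± 0.0187 in WT and 0.120 ± 0.0108 in PATKO, and Il6ra per Il6st was 0.0881 ± 0.0186 and 0.0682 ± 0.0114 (SD, n = 4), both with overlap.

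**Figure D3:**
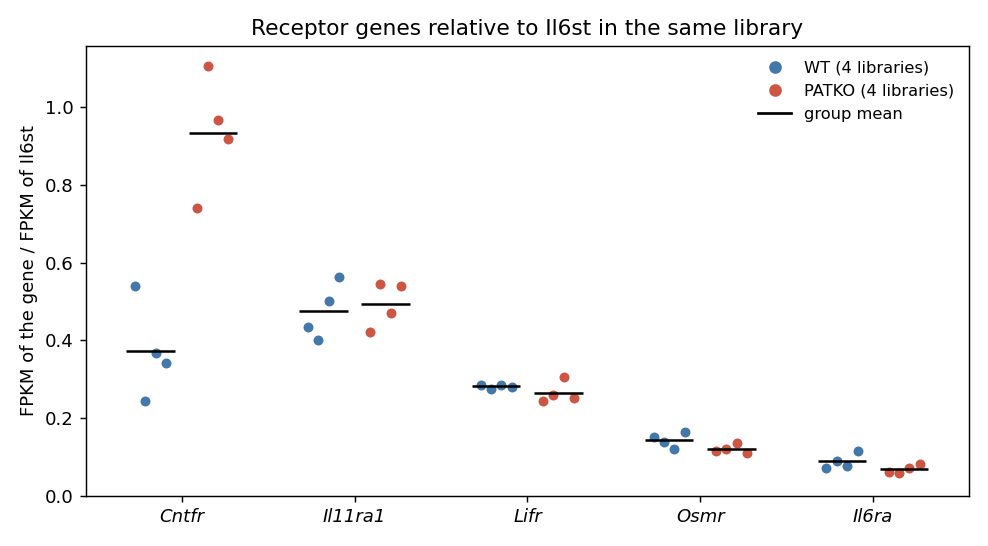
FPKM of 5 receptor genes divided by that of Il6st in the same library, for the 4 WT and 4 PATKO libraries, with group means as bars. The Cntfr ratios of PATKO, 0.739 to 1.11, lie above those of WT, 0.243 to 0.541, and the groups of the other 4 genes overlap.

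By level per gene length, the order in WT was Il6st, Il11ra1, Cntfr, Lifr, Osmr, Il6ra, Socs3 and Lepr. Neighbours whose library ranges overlapped were Il11ra1 and Cntfr, Cntfr and Lifr, and Il6ra and Socs3. In PATKO the order was Il6st, Cntfr, Il11ra1, Lifr, Osmr, Il6ra, Socs3 and Lepr. There Cntfr overlapped with Il6st, being lower in 3 of 4 libraries, and lay above Il11ra1 in 4 of 4. In WT the gene level of Il6st exceeded that of 80.8% of tested genes, that of Cntfr 57.0%, that of Lifr 48.7% and that of Socs3 12.2%. Among the receptor genes the libraries varied most for Lepr and Cntfr in WT, with coefficients of variation of 41.4% and 34.9%, and least for Il11ra1, with 6.81%.

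Other genes of the pathway and neighbours of Cntfr showed few changes. Over 7 lists, limma called 6 of 91 tested genes higher in PATKO and 0 lower, which is 6.59% where 13.5% of all tested genes were called in either direction. Their median log2 change was 0.14. After median-of-ratios scaling 0 of the 91 were called, and the median was -0.05. Before adjustment, 5 then lay higher and 14 lower at 0.05, beside 9.06% and 8.23% of all tested genes. Without WT 62, WT 64, PATKO 53 or PATKO 70 the count was 0, and without WT 65 it was 3.

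The ligand genes were for the most part at low levels. Of 11, 4 were tested and 0 were called (at an unadjusted limma p under 0.05, 1 higher and 1 lower as deposited, 0 and 1 when scaled by the median of ratios). The leptin gene Lep was 53.6 ± 8.63 FPKM in WT and 41.5 ± 5.27 in PATKO (SD, n = 4; limma adjusted p = 0.0809). The groups of Lep overlapped as deposited and were apart with median-of-ratios scaling, as were 4.37% of tested genes in that direction. Its log2 change was then -0.56 (limma adjusted p = 0.141). Ctf1, which encodes cardiotrophin 1, was 7.55 ± 0.819 and 8.71 ± 0.598 FPKM. Cntf, the ligand of the Cntfr chain, named after its values were seen, was 0.304, 0.550, 0.511 and 0.448 FPKM in the WT libraries and 0.584, 0.696, 0.639 and 1.27 FPKM in the PATKO libraries. The groups were apart, as were 24% of tested genes in that direction, with PATKO 71 highest. The change of 0.42 (SE 0.18) did not pass (limma adjusted p = 0.131). With median-of-ratios scaling the groups overlapped and the change was 0.32 (limma adjusted p = 0.431). Il6, Il11, Lif, Osm and Il27 each had means below 0.5 FPKM, and Il31 was listed at 0 throughout.

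Among 21 other receptor subunits of the class I cytokine receptor family, 11 were tested and 0 were called (at an unadjusted limma p under 0.05, 1 higher and 1 lower as deposited, 0 and 2 when scaled). The growth hormone receptor gene Ghr was 86.8 ± 1.81 FPKM in WT and 97.4 ± 2.11 in PATKO (SD, n = 4; limma adjusted p = 0.059). Its groups were apart as deposited, as were 24% of tested genes in that direction, but its log2 change was -0.03 after median-of-ratios scaling. Csf2ra, a granulocyte-macrophage colony-stimulating factor receptor chain, was 4.30 ± 0.871 and 3.52 ± 0.678 FPKM.

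Of 7 sheddase and sorting receptor genes, 1 rose and 0 fell, where 13.2% of all tested genes were called higher and 0.27% lower. Sort1, whose product sortilin binds CNTF and CLCF1, went from 38.4 ± 1.64 to 48.1 ± 5.93 FPKM (SD, n = 4), a log2 change of 0.32 (SE 0.09) with a limma adjusted p of 0.0429. It no longer passed with median-of-ratios scaling, where the limma adjusted p was 0.400. The sheddase gene Adam10 was 6.80 ± 0.811 and 7.43 ± 0.561 FPKM. Of 19 JAK, STAT and adaptor genes, 18 were tested and 0 were called (at an unadjusted limma p under 0.05, 1 higher and 0 lower as deposited, 0 and 2 when scaled). Jak1, the main kinase at gp130, was 22.1 ± 1.65 and 24.5 ± 1.95 FPKM, and the phosphatase and adaptor gene Ptpn11 was 25.8 ± 1.52 and 28.4 ± 1.83 FPKM. Stat3, named after its values were seen, was between 9.325 and 13.5 FPKM in WT and between 11.0 and 13.2 FPKM in PATKO.

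Of 16 negative regulator genes, 13 were tested, 2 rose and 0 fell, where 13.2% of all tested genes were called higher and 0.27% lower. The STAT inhibitor genes Pias2 (6.82 ± 0.812 to 9.76 ± 0.905 FPKM; limma adjusted p = 0.0263) and Pias4 (6.11 ± 0.615 to 8.57 ± 0.613 FPKM; limma adjusted p = 0.0251; SD, n = 4) did so in 4 of 4 PATKO libraries against every WT library. Groups were apart in that direction in 24% of all tested genes. With median-of-ratios scaling the groups of both were still apart, as were 5.56% of tested genes, but neither passed, at limma adjusted p-values of 0.150 and 0.178. Cish, a SOCS family gene induced by STAT5, was 13.9, 20.9, 6.27 and 9.885 FPKM in the WT libraries. It was 33.5, 2.825, 2.445 and 24.9 FPKM in the PATKO libraries, so that the highest and the lowest values of the series were in the same group. Ptpn2, a JAK phosphatase gene, was 9.51 ± 1.46 and 10.6 ± 0.547 FPKM.

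Of 28 STAT3 target genes, 26 were tested and 0 were called (at an unadjusted limma p under 0.05, 4 higher and 2 lower as deposited, 1 and 5 when scaled). The haptoglobin gene Hp was 462.1 ± 119.7 FPKM in WT and 339.1 ± 49.0 in PATKO (SD, n = 4; limma adjusted p = 0.117). The metallothionein gene Mt1 was 183.0 ± 48.4 and 265.8 ± 28.5 FPKM (limma adjusted p = 0.0531). The first was lower and the second higher in PATKO, neither past the threshold. With median-of-ratios scaling the groups of Hp were apart, as were 4.37% of tested genes in that direction, and those of Mt1 overlapped. The log2 changes were then -0.62 for Hp (limma adjusted p = 0.160) and 0.37 for Mt1 (limma adjusted p = 0.297).

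**Figure D4:**
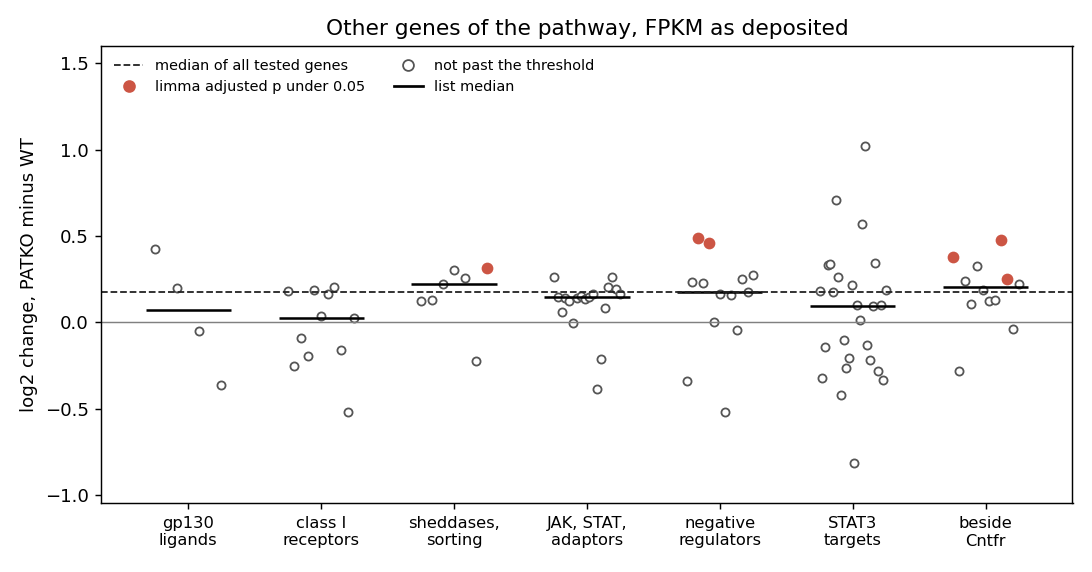
Log2 change, PATKO minus WT, of the 91 tested genes of 7 pathway lists with FPKM as deposited; filled points passed limma's adjusted threshold, bars are list medians and the dashed line is the median of all tested genes, 0.17. The 6 filled points include Sort1, Pias2, Pias4, Rpp25l and AI464131.

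Genes beside Cntfr on chromosome 4 showed small changes. They lie up to 382354 bases from Cntfr, with Rpp25l at 14944 and AI464131 at 154422. Of 16 listed symbols, 15 were in the table and 12 were tested. Of these, 3 rose and 0 fell, where 13.2% of all tested genes were called higher and 0.27% lower. Among them AI464131 went from 6.13 ± 0.603 to 8.09 ± 0.271 FPKM and Rpp25l, a ribonuclease P subunit-like gene, from 7.82 ± 1.06 to 11.0 ± 1.13 FPKM (SD, n = 4), with limma adjusted p-values of 0.0283 and 0.0302. After median-of-ratios scaling 0 passed (2 higher and 1 lower unadjusted). Nudt2 was 21.0 ± 1.26 and 23.1 ± 2.23 FPKM, and the dynactin gene Dctn3 was 34.7 ± 1.97 and 37.4 ± 2.37 FPKM. The largest log2 change among these 12 was 0.48, that of Rpp25l, against 1.62 for Cntfr.

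The genes whose profile over the 8 libraries was most like that of Cntfr were Nt5dc2, Cyp2e1, Ckb, Tcea3 and Slc25a34. Likeness was the root-mean-square difference of centred log2(FPKM + 0.5) values, which was 0.26 for Nt5dc2 and 0.35 to 0.37 for the others, against a median of 0.79 over all tested genes. Nt5dc2 was 5.37, 2.23, 3.225 and 2.99 FPKM in the WT libraries and 8.35, 16.0, 8.62 and 9.54 FPKM in the PATKO libraries. Like Cntfr it was highest in WT 55 within WT. Ckb, the brain-type creatine kinase gene, was 32.03 FPKM in WT 55 and 30.5 FPKM in PATKO 53, so its groups overlapped, and Cyp2e1, a cytochrome P450 gene, ranged from 19.3 to 52.1 FPKM in WT and from 78.0 to 173.6 in PATKO. All 5 share with Cntfr a higher mean in PATKO, which follows from their choice by likeness to Cntfr, so nothing is read from it.

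Skeletal muscle markers, like Cntfr, were higher in PATKO. All 22 were called higher in PATKO as deposited and 0 after median-of-ratios scaling (22 before adjustment), and none was at 0 in any library. Their summed level, led by the troponin gene Tnnt3, came to 772.6, 593.0, 628.9 and 1423 FPKM for WT 55, 62, 64 and 65. For PATKO 53, 57, 70 and 71 it came to 2464, 1606, 2396 and 6171 FPKM. Every PATKO library was above every WT library in muscle level, as it was in Cntfr, so genotype and muscle content cannot be told apart as sources of the Cntfr difference. Within the groups the order differed. Muscle level was highest in WT 65 and PATKO 71, and Cntfr in WT 55 and PATKO 70. With the muscle level as a covariate the log2 change of Cntfr was 1.78 (SE 0.37) and no longer past the threshold, and 0 of the 8 members were called (before adjustment, 2 lay higher and 0 lower in limma at 0.05). That fit called 2 of all tested genes, 1 higher and 1 lower. Without the covariate 1646 genes were called, and the log2 change of Cntfr was 1.62 (SE 0.20).

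**Figure D5:**
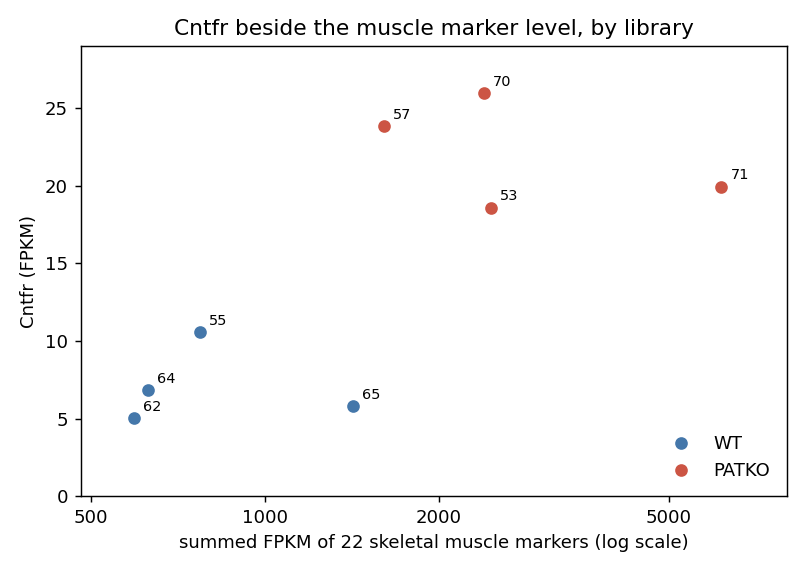
Cntfr level (FPKM) against the summed FPKM of 22 skeletal muscle markers (log scale), 1 point per library labelled with its number. The PATKO points lie at 18.6 to 26.0 FPKM over muscle levels of 1606 to 6171 FPKM, and the groups are apart on both axes, so that genotype and muscle content cannot be told apart here.

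Markers of other cells were compared in the same way, and their part in the Cntfr difference was not tested. The counts below of genes called as deposited stand beside the 13.2% of all tested genes called higher and the 0.27% called lower. Counts before adjustment stand beside 34.6% higher and 1.39% lower as deposited, and 9.06% and 8.23% when scaled. Of 12 Schwann cell and nerve markers 9 were tested and 3 rose, with none at 0, and their sum, led by Pmp22, was 79.0 to 100.1 FPKM in WT and 103.7 to 130.3 in PATKO. Of 12 fibroblast and progenitor markers 2 rose, and their sum, led by Gsn, was 616.6 to 774.3 FPKM in WT and 729.2 to 1366 in PATKO. Of 10 endothelial markers 1 rose, with sums, led by Egfl7, of 205.0 to 277.1 and 230.5 to 281.0 FPKM. With median-of-ratios scaling 0 markers of these 3 lists were called (before adjustment, 4 higher and 1 lower, 2 and 0, and 0 and 0). The 10 macrophage markers (0 called; at an unadjusted limma p under 0.05, 2 higher and 0 lower as deposited, 0 and 0 when scaled), led by Lyz2, summed to 68.2 to 144.8 and 70.4 to 150.0 FPKM. Of 10 lymphocyte markers, led by Ptprcap, 6 were tested and 0 were called (at an unadjusted limma p under 0.05, 0 higher and 3 lower as deposited, 0 and 5 when scaled), with sums of 3.325 to 15.4 and 2.50 to 4.42 FPKM.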

How the data were processed

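Per the labels' protocols, 0.5 µg of total RNA went into each stranded poly(A) library. The build is mm10, per the submitters' processing notes, while for the aligner, counting tool and annotation the entry is: not given in the sources used here. The authors deposited FPKM per gene and library, their group means, a linear fold and an adjusted p-value, per the file headers; the fold is not used. FPKM values are not read counts, so genes whose mean reached 0.5 FPKM were tested with limma 3.58.1 (R 4.3.3; trend, two-sided) on log2(FPKM + 0.5), with Benjamini-Hochberg adjustment over 12235 genes. Fold changes on this scale understate those of low genes. Members and lists were chosen with earlier results of these data known, and no list was tested as a set.

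Named genes were the members, Pgrmc2 and Pgrmc1, up to 4 called genes and the 2 with the highest mean of each pathway list, the 5 most like Cntfr, and the highest gene of each marker list. Not every gene this rule names is reported here. Gene positions are those of GENCODE M21 (GRCm38, equal to mm10). Promoter windows came from RefSeq; the bases after the start lay in a GENCODE transcript of the gene for 7 of 16 windows, and their reverse complement for 0. Alternatives were other pseudocounts, filters, scalings and limma settings, the muscle level as a covariate, and leaving out each library. Figures used matplotlib 3.10.9.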

Additional observations from a re-analysis of the deposited data

Results flagged for a closer look

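Among the named genes and the ratios, 102 groups of 4 libraries were checked for a library far from the other 3 of its group, which chance alone flags in about 1 of 20 groups. None of the 9 genes or their ratios was among the 6 found. Nt5dc2 was 16.0 FPKM in PATKO 57. Csf2ra was 4.53, Pgrmc1 62.3 and the Schwann cell marker Pmp22 75.4 FPKM in PATKO 70. The endothelial marker Egfl7 was 66.2 FPKM in WT 55, and the muscle marker Tnnt3 was 206.8 FPKM in WT 65, the WT library with the highest muscle level.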

How the results depend on the processing

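The log2 change of Cntfr stayed between 1.42 and 1.82 under all 18 alternatives. Cntfr was past the threshold in 17, the exception being the muscle covariate, but nothing is read from this, since the contrast chose it. With deposited values, 1646 genes were called; separate fits called 15 after median-of-ratios scaling, 28 after scaling to a common total, 18 after quantile normalization, 713 with no filter, 992 without the trend and 2 with the muscle covariate, and 24 to 1468 when 1 library was left out. Of the 9 genes, 3 were called as deposited, 1 under each of these 3 scalings, 0 with the muscle covariate (2 higher and 0 lower at an unadjusted limma p under 0.05) and 1 to 2 when 1 library was left out. Of the other pathway genes 6 were called as deposited, 0 under median-of-ratios scaling (5 higher and 14 lower unadjusted), a common total (8 and 7) or quantile normalization (6 and 13), 0 with the muscle covariate (4 and 0), and 0 to 6 when 1 library was left out. The cause of these shifts was not tested, beyond the scalings' own removal of the shift shared by most genes. Leaving out each library in turn, Cntfr per Il6st in PATKO was 2.24 to 2.93 times that in WT. No paired analysis was possible because the groups share no replicate number. Absolute depth is unknown, so no counting interval is given, and none can be given for the low levels of Lepr and Cntf.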
